A study of Mus musculus with 6 samples.

Results

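The genes described here are the 37 members of the glycolytic pathway in the deposited table of mouse articular cartilage: the glucose transporters, the enzymes from glucose to lactate, the lactate transporters, and the enzymes and kinases that set the flow into, out of and around the pathway. The rule takes genes by name and uses no measured value, but the list was drawn up with earlier results of these data known. The 37 names were carried by 38 of the 34709 rows of the table, because Aldoa stood on 2 rows, and all 38 rows passed the filter on low values (0.5 FPKM or more as the mean of the 6 libraries). FPKM counts fragments relative to transcript length and library size, so levels on this scale are per length and can be compared between genes. RNA-seq libraries of articular cartilage from aged knockout (KO) and aged wildtype mice were compared, 3 libraries for each genotype. The paper gives the same age for both groups. KO mice were a purchased line on the C57BL/6J background, and male littermates were described for the ageing comparison of KO and wildtype mice. Neither group had received a treatment, and nothing stated whether a library held tissue of 1 mouse or of several. The p-values below therefore measure the spread between these samples, which may be technical.

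Glycolysis splits glucose into pyruvate in the cytosol and yields ATP without oxygen. Hexokinase, phosphofructokinase and pyruvate kinase catalyse its irreversible steps, and most steps are served by several isoforms with different tissue distributions. Chondrocytes, the cells of cartilage, lie in a matrix with little oxygen and are known to depend on glycolysis, and they export the resulting lactate through monocarboxylate transporters. Neutrophils, red cells and fast muscle fibres are also known for a high glycolytic rate, each with isoforms of its own.

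The libraries held between 52268311 and 63331135 counts. KO replicates 2 and 3 were nearly the same: the squared differences of their counts were 5.66 to 6.10 times those of Poisson sampling over 3 ranges of counts. For the other 14 pairs they were 13.0 to 45.3 times at 200 to 1000 counts, 24.3 to 107 times at 1000 to 5000 and 73.8 to 654 times at 5000 to 50000. They were counted as 1 sample (their mean), which left 2 KO and 3 wildtype samples. The library labelled KO replicate 1 stood apart from them on the first principal component, at -13.5 against 33.9 and 33.8, near the wildtype libraries at -16.1 to -20.2. Results are therefore given with the 5 samples, with the 6 libraries as labelled, and with either KO replicate 1 or the merged pair left out. The fit of the 6 libraries treats KO replicates 2 and 3 as independent, so its adjusted p-values are lower than the data can bear if both came from the same source. In the fit without KO replicate 1 a single KO sample was left, which was assumed to vary like the wildtype samples.

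The cartilage label was checked against marker genes. The 12 chondrocyte markers summed to 612 to 1443 FPKM per library, of which Prg4, the lubricin of the joint surface, held 68.7% on average, and Matn3 and Col9a1 were under the filter. Neutrophil markers summed to 62539 FPKM and erythroid markers to 52372 FPKM in KO replicate 1 alone. In every library the neutrophil and the erythroid sums both exceeded the chondrocyte sum by far. In bulk samples such as these, fewer cells of a type and less RNA per cell cannot be told apart.

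To ask how glycolytic genes differed in KO cartilage, the counts were compared between genotypes. In the 5 samples, 27 of the 38 rows lay higher in KO and 11 lower, and the median log2 difference (KO minus wildtype) of the rows was 0.31, against -0.016 over all 15373 genes tested. The higher side held most of the main route, with Hk2, Hk3, Adpgk, Gpi1, Pgk1, Pgam1, Eno1, Pkm and the lactate exporter Slc16a3 at 1.45 to 1.78 times the wildtype level. The lower side was led by Slc16a1, a lactate and pyruvate transporter, at 0.60 times, and by Pklr, the liver and red cell pyruvate kinase, at 0.53 times. No member was called by edgeR at the threshold used, a Benjamini-Hochberg adjusted p-value under 0.05 (0 of 38, against 0% of all genes tested), and the lowest adjusted p-value of a member was 0.166.

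At an unadjusted p-value under 0.05, 18 members were higher in KO, where 7.63% of all genes were, and 2 members were lower, where 6.07% of all genes were. The 18 were Slc2a1, Slc2a3, Slc2a6, Hk2, Hk3, Adpgk, Gpi1, Pfkp, Pfkfb3, Pfkfb4, Aldoa, Gapdh, Pgk1, Pgam1, Eno1, Pkm, Slc16a3 and Pdk3, with log2 differences of 0.32 to 1.20, and the 2 were Slc16a1 and Pklr. With the 6 libraries as labelled, 12 members passed the adjusted threshold. Of these, 10 were higher (Hk2, Hk3, Adpgk, Gpi1, Pfkfb3, Pfkfb4, Pgam1, Eno1, Slc2a6 and Slc16a3), with 2.46% of all genes called higher, and Slc16a1 and Pklr were lower, with 1.25% called lower. By DESeq2 on the 5 samples 14 members were called higher (3.45% of all genes) and 2 lower (2.27% of all genes). Every KO library lay above every wildtype library in FPKM for 19 members (11.3% of all genes) and below for 3 members (13.7% of all genes).

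In 17 of the 18 higher members the FPKM of KO replicate 1 lay between the wildtype mean and the level of KO replicates 2 and 3, the exception being Gapdh. KO replicate 1 was 1 of the 2 KO samples in the fit that chose the 18, so this is a description of them. Their differences were 0.14 to 1.45 without KO replicates 2 and 3, and 0.41 to 1.08 without KO replicate 1. Over all 38 rows the median was 0.32 without KO replicates 2 and 3 and 0.36 without KO replicate 1. Without KO replicate 1, 6 members were called higher (Slc2a3, Hk2, Hk3, Gpi1, Pgam1 and Eno1; 1.7% of all genes) and 0 lower (0.585% of all genes).

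**Figure D1:**
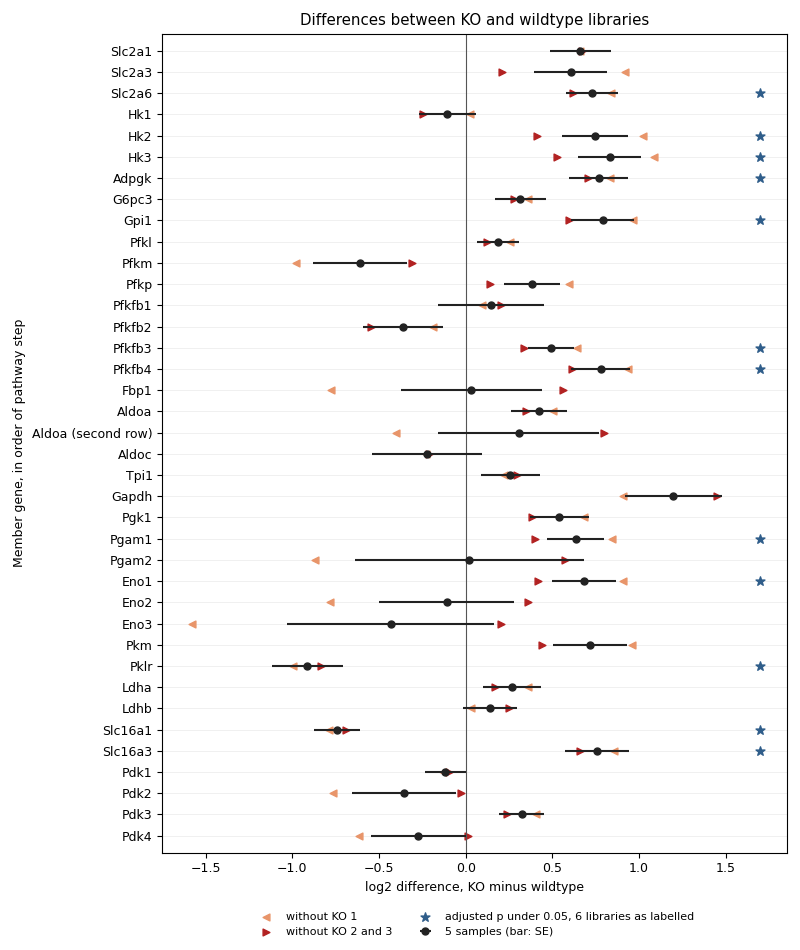
Log2 differences (KO minus wildtype, x axis) of the 38 member rows (y axis, in order of pathway step); black points are the 5-sample fit with bars of 1 SE, triangles are fits with KO replicate 1 or with the other KO pair left out, and stars mark the 12 members with an adjusted p-value under 0.05 in the 6 libraries as labelled. Most members of the main route lie to the right of 0, and Slc16a1 and Pklr lie to the left in all fits shown. Hk1, Fbp1, the second Aldoa row, Pgam2, Eno2, Eno3 and Pdk4 change sign with the KO library used.

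Levels of the members are given below in the order KO replicates 1, 2 and 3, then wildtype replicates 1, 2 and 3. Adjusted p-values are those of edgeR, over all genes tested.

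Glucose enters the cell through facilitative transporters. Slc2a3, the high-affinity transporter of neurons and leukocytes, was the most abundant of the 3 transporters. It stood at 27.7, 49.3 and 49.0 FPKM in KO and 25.2, 24.6 and 26.3 FPKM in wildtype. Only KO replicates 2 and 3 stood well above the wildtype libraries, and KO replicate 1 was just above the highest of them. The log2 difference was 0.61 (SE 0.21, adjusted p = 0.277), and it was 0.21 without KO replicates 2 and 3 and 0.92 without KO replicate 1. Slc2a1, the ubiquitous basal transporter, showed the opposite arrangement, with KO libraries close together at 7.81, 8.28 and 8.49 FPKM against 4.51, 5.86 and 5.13 FPKM in wildtype. Its log2 difference of 0.66 (SE 0.18) was close to 0.67 and 0.66 in the same reduced fits, and its adjusted p was 0.193 in the 5 samples and 0.0504 in the 6 libraries. Slc2a6, a transporter of leukocytes and spleen, stood at 8.61, 10.9 and 10.9 FPKM in KO and 5.65, 6.15 and 5.98 FPKM in wildtype, with no overlap between groups. Its log2 difference was 0.73 (SE 0.15), with an adjusted p of 0.166, the lowest of the pathway together with Slc16a1, and 0.0358 in the 6 libraries.

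Hexokinases trap glucose by phosphorylation, and the hexokinase step was dominated by Hk3, the isoform known from myeloid cells. Hk3 (chromosome 13, 55005985 to 55021385, GRCm38) stood at 64.2, 102 and 103 FPKM in KO and 46.9, 45.5 and 48.8 FPKM in wildtype. The wildtype libraries lay within a few FPKM of each other, KO replicate 1 was above all of them, and KO replicates 2 and 3 were higher still. The KO mean was 83.3 ± 26.9 FPKM (SD, n = 2) and the wildtype mean 47.1 ± 1.64 FPKM (SD, n = 3), a log2 difference of 0.83 (SE 0.18, adjusted p = 0.168, and 0.0367 in the 6 libraries). Hk2 (chromosome 6, 82725025 to 82774454), the insulin- and hypoxia-responsive isoform, was far less abundant, at 7.04, 11.4 and 11.9 FPKM in KO and 5.85, 5.07 and 5.86 FPKM in wildtype. Its groups did not overlap either, and its log2 difference was 0.75 (SE 0.19, adjusted p = 0.182, and 0.0441 in the 6 libraries). Hk1, the housekeeping and erythrocyte isoform, overlapped between groups at 16.9, 22.4 and 22.0 against 21.1, 18.1 and 24.7 FPKM, with a log2 difference of -0.11 (SE 0.17). Adpgk, which phosphorylates glucose with ADP in place of ATP, stood at 68.4, 81.5 and 80.5 FPKM in KO and 41.8, 47.7 and 43.4 FPKM in wildtype. All 3 KO libraries were well above the wildtype range, so that its log2 difference of 0.77 (SE 0.17, adjusted p = 0.168) was 0.70 without KO replicates 2 and 3 and 0.83 without KO replicate 1.

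Glucose 6-phosphate is isomerised by Gpi1 and can be released again by glucose-6-phosphatases. Gpi1 (chromosome 7, 34201330 to 34230336) stood at 101, 143 and 140.2 FPKM in KO and 68.9, 72.3 and 70.8 FPKM in wildtype. The groups were apart, and KO replicate 1 lay midway. The log2 difference was 0.79 (SE 0.18, adjusted p = 0.171, and 0.0363 in the 6 libraries). G6pc3, the ubiquitous glucose-6-phosphatase subunit whose loss is known to cause neutropenia, stood at 11.0, 12.0 and 13.2 FPKM in KO and 9.53, 10.2 and 9.06 FPKM in wildtype. The groups did not overlap but were close, the log2 difference being 0.31 (SE 0.15, adjusted p = 0.419).

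Phosphofructokinase commits sugar to glycolysis, and its isoforms differed in direction. Pfkm, the muscle isoform, stood at 10.3, 7.28 and 6.81 FPKM in KO and 11.2, 11.7 and 17.8 FPKM in wildtype. Every KO library was below every wildtype library, and wildtype replicate 3 was the highest by a margin. The log2 difference was -0.61 (SE 0.27, adjusted p = 0.393). The log2 difference of Pfkm was -0.36 without wildtype replicate 3, -0.98 without KO replicate 1 and -0.31 without KO replicates 2 and 3. Pfkp, the platelet isoform, stood at 4.06, 6.21 and 5.87 FPKM in KO and 4.13, 3.60 and 3.98 FPKM in wildtype, with KO replicate 1 inside the wildtype range. Its log2 difference of 0.38 (SE 0.16, adjusted p = 0.357) came down to 0.14 without KO replicates 2 and 3. Pfkl, the liver isoform, overlapped between groups at 7.18, 8.84 and 8.18 against 7.44, 6.48 and 7.01 FPKM (log2 difference 0.19, SE 0.12). Summed over the isoforms, the step stood at 21.6, 22.3 and 20.9 FPKM in KO and 22.8, 21.7 and 28.8 FPKM in wildtype, so that the summed level overlapped between groups while its isoforms did not keep their proportions.

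The bifunctional PFKFB enzymes make and break the bisphosphate that activates phosphofructokinase. Pfkfb4 stood at 20.9, 28.2 and 28.5 FPKM in KO and 12.9, 16.4 and 14.0 FPKM in wildtype. Pfkfb3, whose kinase activity far exceeds its phosphatase activity, stood at 9.78, 12.9 and 13.3 FPKM in KO and 8.81, 7.66 and 8.12 FPKM in wildtype. Both were higher in every KO library than in any wildtype library. Their log2 differences were 0.78 (SE 0.17) and 0.49 (SE 0.13), with adjusted p-values of 0.168 and 0.197 in the 5 samples and 0.0363 and 0.0441 in the 6 libraries. Pfkfb1 and Pfkfb2, the liver and heart isoforms, were at most 2.82 FPKM in any library and overlapped between groups. Fbp1, the gluconeogenic bisphosphatase that runs against phosphofructokinase, was at 2.53, 1.16 and 1.0 FPKM in KO and 1.72, 1.93 and 1.77 FPKM in wildtype. KO replicate 1 was above and KO replicates 2 and 3 below the wildtype libraries, so its difference of 0.032 (SE 0.41) became -0.78 without KO replicate 1 and 0.56 without KO replicates 2 and 3.

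Aldolase and triosephosphate isomerase produce the triose phosphates. Aldoa, the muscle and general isoform, stood at 152, 183 and 184 FPKM in KO and 120.4, 118 and 141 FPKM in wildtype. The groups did not overlap, although wildtype replicate 3 came close to KO replicate 1. The log2 difference was 0.42 (SE 0.16, adjusted p = 0.311). Its second row, a gene model on the same strand beside it with a shorter coding sequence, was at most 1.07 FPKM, and Aldoc, the brain isoform, at most 0.919 FPKM, both overlapping between groups. Tpi1 stood at 88.8, 90.8 and 91.9 FPKM in KO and 64.9, 85.1 and 78.4 FPKM in wildtype, a small difference of 0.26 on the log2 scale (SE 0.17, adjusted p = 0.598).

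Gapdh, the dehydrogenase that couples triose phosphate oxidation to NADH, showed the largest difference of the pathway, and this value needs care. The row (chromosome 6, 125161715 to 125165773) stood at 21.9, 21.9 and 10.8 FPKM in KO and 12.2, 6.58 and 6.86 FPKM in wildtype, far under the levels of its pathway neighbours Aldoa and Pgk1. KO replicates 2 and 3, which otherwise differed by at most 1.21-fold in any member of at least 5 FPKM, differed by 2.03-fold here. The log2 difference of the row was 1.20 (SE 0.28, adjusted p = 0.173). The mouse genome carries many processed pseudogenes of Gapdh. The table held 47 other rows that matched the Gapdh coding sequence with at least 97% identity over at least 150 bases. The Gapdh row held only 2.41% to 6.53% of the counts of Gapdh and these copies together. As CPM (counts relative to the library total, with TMM scaling), the row was at 108, 99.7 and 49.1 in KO and 55.3, 31.9 and 31.9 in wildtype, whereas row and copies together were at 1652, 1978 and 2025 in KO and 1076, 1325 and 1305 in wildtype. In the sum KO replicates 2 and 3 lay close to each other again, and every KO library was above every wildtype library. With the copies added to the row, an alternative chosen after seeing the data, the log2 difference was 0.57 (SE 0.22, adjusted p = 0.324), near that of Pgk1, in place of 1.20. The level and the difference of the Gapdh row are therefore uncertain, and it is of little use as a reference gene in this table.

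**Figure D2:**
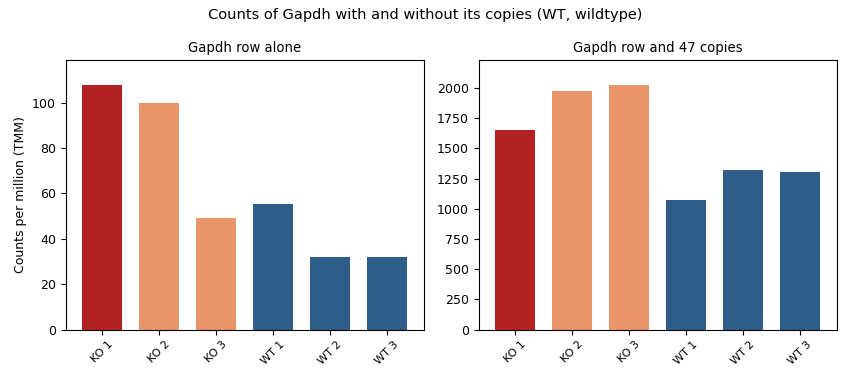
CPM (y axis, counts relative to the library total) of the Gapdh row alone (left) and with the 47 rows matching its coding sequence (right). Bars are libraries (red and orange for KO, blue for wildtype). The row alone separates KO replicate 3 from KO replicate 2, whereas the sum places all 3 KO libraries at 1652 to 2025 and the wildtype libraries at 1076 to 1325.

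The payoff enzymes between Gapdh and pyruvate kinase shared the same arrangement of libraries. Pgk1, which makes the first ATP of the pathway, stood at 148, 197 and 198 FPKM in KO and 111, 130.0 and 119 FPKM in wildtype. Pgam1, the general phosphoglycerate mutase, stood at 101, 148 and 149 FPKM in KO and 83.0, 82.2 and 77.8 FPKM in wildtype. Eno1, the general enolase, stood at 73.1, 112 and 110.4 FPKM in KO and 56.5, 55.8 and 61.0 FPKM in wildtype. In all 3, KO replicates 2 and 3 were highest, KO replicate 1 next, and the wildtype libraries lowest. The log2 differences were 0.54 (SE 0.17), 0.63 (SE 0.16) and 0.68 (SE 0.18), with adjusted p-values of 0.243, 0.186 and 0.197. In the 6 libraries the adjusted p-values were 0.0602, 0.0433 and 0.0461. These genes also have near-identical copies in the table (3 for Pgk1, 1 for Pgam1 and 2 for Eno1), but adding their counts moved the differences only to 0.54, 0.63 and 0.68, although Eno1 then had an adjusted p of 0.0501 in the 6 libraries. The muscle isoforms behaved differently. Pgam2 stood at 9.06, 3.56 and 3.64 FPKM in KO and 3.64, 3.33 and 12.4 FPKM in wildtype, and Eno3 at 16.9, 4.79 and 5.78 FPKM in KO and 9.63, 10.6 and 26.2 FPKM in wildtype. Wildtype replicate 3 and KO replicate 1 were the highest libraries for both, and the groups overlapped widely. Eno2, the neuronal enolase, was at most 0.982 FPKM.

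Pyruvate kinase makes pyruvate and ATP, and its isoforms lay in opposite directions. Pkm (chromosome 9, 59656368 to 59679375), the isoform of muscle, leukocytes and most other cells, was the most abundant member in the KO libraries, at 159, 249 and 244 FPKM in KO and 118, 125 and 129 FPKM in wildtype. The groups did not overlap, and the KO mean of 203 ± 62.0 FPKM (SD, n = 2) and the wildtype mean of 124 ± 5.71 FPKM (SD, n = 3) differed by 0.72 on the log2 scale (SE 0.21, adjusted p = 0.222, and 0.0540 in the 6 libraries). Pklr (chromosome 3, 89136142 to 89146594), the isoform of liver and red cells, stood at 6.31, 6.63 and 5.59 FPKM in KO and 10.7, 9.92 and 15.0 FPKM in wildtype. All 3 KO libraries were alike and below the wildtype libraries. The log2 difference was -0.92 (SE 0.20, adjusted p = 0.168, and 0.0396 in the 6 libraries), and it stayed between -1.01 and -0.70 with each library left out.

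Lactate dehydrogenase converts pyruvate to lactate, and monocarboxylate transporters carry lactate across the membrane. Ldha, the lactate-forming subunit, stood at 150.1, 186 and 185 FPKM in KO and 132, 148 and 142 FPKM in wildtype. KO replicate 1 was only slightly above the highest wildtype library, and the log2 difference of 0.26 (SE 0.17, adjusted p = 0.576) was smaller than that of Pgk1 or Pkm. Ldhb, the heart subunit, overlapped between groups at 13.5, 12.3 and 12.9 against 13.4, 10.8 and 12.0 FPKM. The transporters diverged. Slc16a3, the low-affinity exporter of glycolytic cells, stood at 15.8, 19.6 and 19.7 FPKM in KO and 8.54, 12.0 and 11.0 FPKM in wildtype. Slc16a1 (chromosome 3, 104638668 to 104658462), the widely expressed transporter that carries lactate and pyruvate either way, stood at 22.7, 23.1 and 22.7 FPKM in KO and 37.1, 36.3 and 42.5 FPKM in wildtype. Neither gene overlapped between groups, and for Slc16a1 the 3 KO libraries lay within 1 FPKM of each other. The log2 differences were 0.76 (SE 0.18, adjusted p = 0.175, and 0.0430 in the 6 libraries) and -0.74 (SE 0.13, adjusted p = 0.166, and 0.0324 in the 6 libraries). For Slc16a1 the difference was nearly the same without KO replicate 1 (-0.79) as without KO replicates 2 and 3 (-0.69).

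Pyruvate dehydrogenase kinases close the entry of pyruvate into the mitochondrial cycle. Pdk3, the most abundant of them here, stood at 13.9, 17.4 and 16.4 FPKM in KO and 13.0, 12.5 and 11.9 FPKM in wildtype, without overlap (log2 difference 0.32, SE 0.13, adjusted p = 0.340). Pdk1, the kinase known to be induced by low oxygen, was at 5.01, 5.23 and 5.43 FPKM in KO and 5.93, 5.35 and 5.77 FPKM in wildtype, a difference of -0.12 (SE 0.12). Pdk2 and Pdk4, the kinases of oxidative tissues and fasting, were at 1.59 to 3.83 FPKM and overlapped between groups, with log2 differences of -0.36 and -0.27. These were -0.76 and -0.62 without KO replicate 1, and -0.030 and 0.010 without KO replicates 2 and 3.

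**Figure D3:**
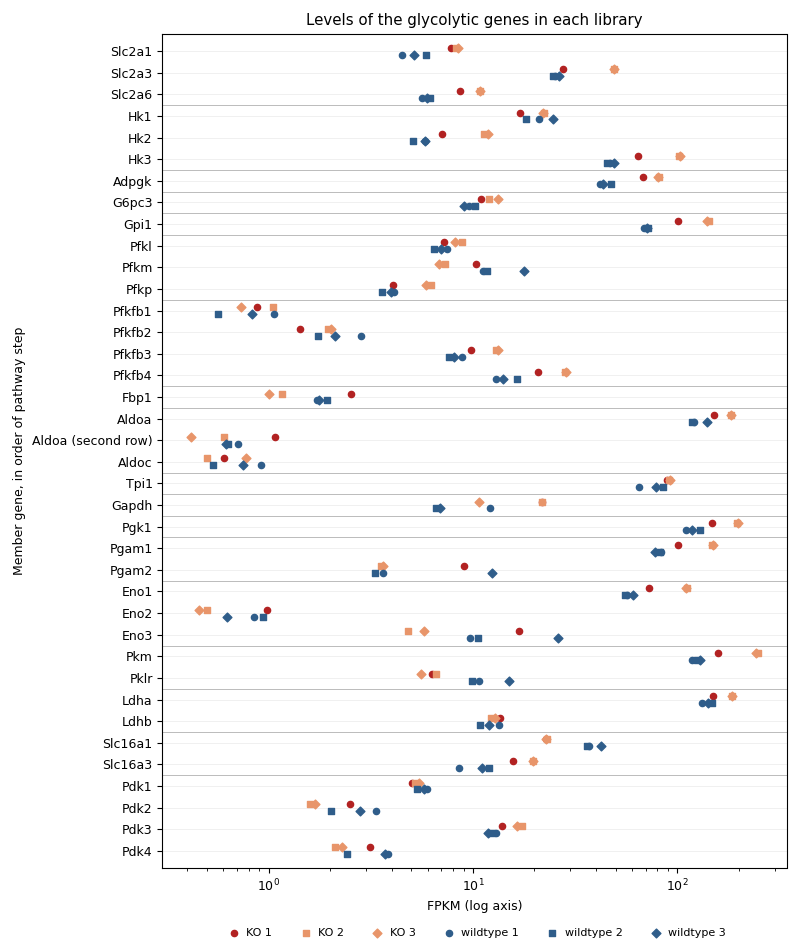
FPKM (x axis, log scale) of the 38 member rows (y axis, in order of pathway step) in each library; red and orange points are KO libraries and blue points wildtype libraries, and coinciding points cover each other. The levels run from under 1 FPKM (Pfkfb1, Aldoc, Eno2) to 249 FPKM (Pkm), and KO replicate 1 lies between the other KO libraries and the wildtype libraries for most members of the main route.

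Because FPKM is per length, the isoforms of a step were next set side by side within each library, as a share of their summed FPKM. Hk3 made up 72.8, 75.1 and 75.2% of hexokinase in KO and 63.5, 66.3 and 61.5% in wildtype, and Hk1 19.2, 16.5 and 16.1% and 28.6, 26.3 and 31.1%. Pfkm made up 47.9, 32.6 and 32.6% of phosphofructokinase in KO and 49.2, 53.7 and 61.8% in wildtype. The shares of both steps did not overlap between groups, with differences of the group means of 10.2 points for Hk3, -10.9 points for Hk1 and -14.6 points for Pfkm. The widest difference was in the lactate transporters, where Slc16a3 made up 41.0, 45.9 and 46.4% in KO and 18.7, 24.9 and 20.6% in wildtype, 22.2 points. Pklr made up 3.82, 2.59 and 2.24% of pyruvate kinase in KO and 8.35, 7.38 and 10.4% in wildtype. Pdk3 made up 56.6, 66.0 and 63.6% of the pyruvate dehydrogenase kinases in KO and 49.7, 56.0 and 49.2% in wildtype. Neither pair of groups overlapped. Eno3 made up 18.6, 4.09 and 4.96% of enolase in KO and 14.4, 15.8 and 29.8% in wildtype, which overlapped. A share says nothing of the level of its step, and the lower share of Hk1, for example, came with an overlapping level of Hk1 itself. With 2 against 3 samples the smallest p-value of an exact two-sided permutation test is 0.2, and with the 6 libraries it is 0.1, so none of the 30 shares tested could reach 0.05. The adjusted p-values were 0.375 and 0.188 for each share that did not overlap.

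**Figure D4:**
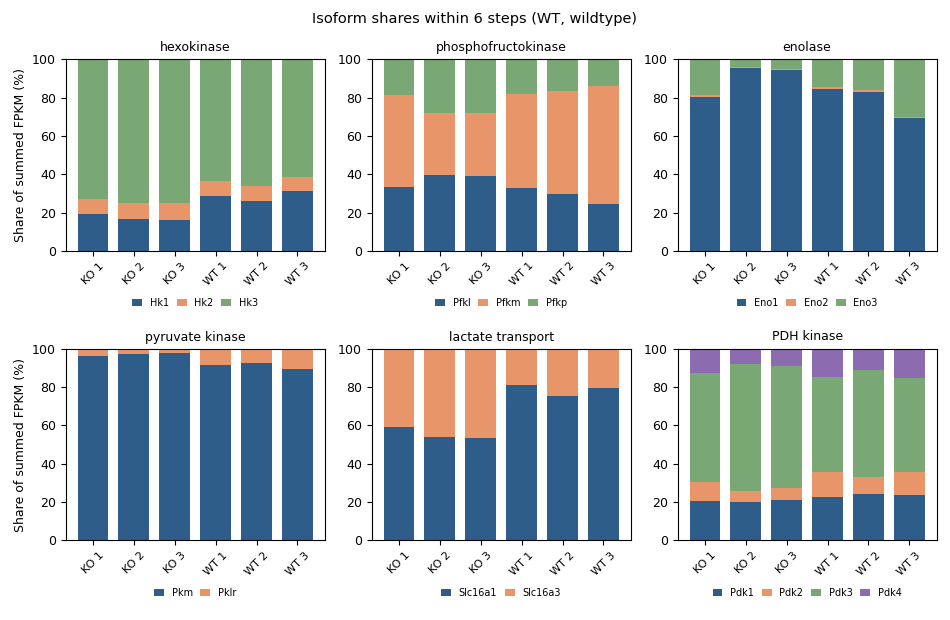
Share of each isoform in the summed FPKM of its step (y axis, percent, stacked bars) in each library, for hexokinases, phosphofructokinases, enolases, pyruvate kinases, the lactate transporters and the pyruvate dehydrogenase kinases. The Slc16a3 share is 41.0% to 46.4% in KO libraries and 18.7% to 24.9% in wildtype libraries, whereas the Eno3 share is high in KO replicate 1 and wildtype replicate 3.

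The isoforms were then read beside marker genes of the cells in which they are known to prevail. Of 12 neutrophil markers, 12 were higher in KO, 7 at an unadjusted p-value under 0.05, where 7.63% of all genes were. In the 6 libraries 5 of the markers were called higher, where 2.46% of all genes were. The median log2 difference of the 12 markers was 0.86. Their summed FPKM was 62539, 51286 and 52483 in KO and 27244, 43880.3 and 30974 in wildtype, mostly S100a9 and S100a8. KO replicate 1 had the highest sum, yet it was lower than KO replicates 2 and 3 in Hk3, Slc2a3, Gpi1 and Pkm. The median log2 ratio of the 12 markers to their wildtype mean, in which each marker counts alike, was 0.65, 0.96 and 0.95 in KO and -0.16, 0.18 and -0.064 in wildtype. On that measure KO replicate 1 lay between the wildtype libraries and KO replicates 2 and 3, as it did for these members. In FPKM, KO replicate 1 lay between the wildtype mean and KO replicates 2 and 3 in 6 of the 12 markers. Among these 6 were Mmp8, a granule collagenase, at 256, 402 and 399.8 FPKM in KO and 151, 179 and 177 FPKM in wildtype, and Cxcr2, a chemokine receptor of mature neutrophils, at 59.5, 110.1 and 118 and 43.5, 44.9 and 45.3 FPKM. KO replicate 1 was the highest library for S100a9, S100a8 and Camp, a granule peptide, which stood at 6175, 3807 and 3863 FPKM in KO and 2369, 4365 and 2849 FPKM in wildtype. These 5 markers were named after their values were seen. The part of neutrophil RNA in the higher levels of the glycolytic members was not tested.

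Erythroid and B cell markers were lower. All 9 erythroid markers tested were lower in KO, 4 at an unadjusted p-value under 0.05, where 6.07% of all genes were lower. The erythroid sums were 52372, 21349 and 21157 FPKM in KO and 60564, 71461 and 93900.3 FPKM in wildtype. Pklr and Slc16a1 were lower in KO as well, and much alike in the 3 KO libraries. The erythroid sum of KO replicate 1 was well above those of KO replicates 2 and 3, but globin Hbb-bs alone held 47.3% of it on average. The markers' median log2 ratio to the wildtype mean was -0.55, -1.06 and -1.03 in KO and -0.13, -0.14 and 0.30 in wildtype. For Epb42 KO replicate 1 was near KO replicates 2 and 3 (21.2 against 19.2 and 19.8 FPKM). For Hbb-bs it was well above them (25197 against 9667 and 9546 FPKM). All 8 B cell markers were lower, with sums of 138, 91.2 and 93.4 FPKM in KO and 314, 292 and 280.2 FPKM in wildtype. The part of erythroid and B cell RNA in the lower levels of Pklr and Slc16a1 was not tested.

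Skeletal muscle markers varied most between libraries, with sums of 159, 5.45 and 4.58 FPKM in KO and 36.9, 59.6 and 294 FPKM in wildtype. Wildtype replicate 3 and KO replicate 1 had the highest sums, and KO replicates 2 and 3 nearly none. Eno3 and Pgam2 were also highest in wildtype replicate 3 and KO replicate 1. Pfkm was highest in wildtype replicate 3 as well, and lowest in KO replicates 2 and 3. The differences of Eno3 and Pgam2 between genotypes changed sign with the libraries used, from -1.58 and -0.87 without KO replicate 1 to 0.20 and 0.57 without KO replicates 2 and 3. The part of muscle RNA in these differences was not tested. Chondrocyte markers summed to 1443, 636 and 645 FPKM in KO and 612, 834 and 759.6 FPKM in wildtype, and Prg4 held most of the sum. KO replicate 1 had the highest sum and the highest level of the markers tested, except Col2a1, Col11a1 and Cnmd. In KO replicate 1, Hk3, Gpi1, Pgk1, Pgam1, Eno1 and Pkm were below their level in KO replicates 2 and 3. The part of chondrocyte RNA in the levels of the members was not tested. The median log2 difference of the 10 chondrocyte markers tested was 0.06, with 6 higher and 4 lower, but it was -0.53 without KO replicate 1 and 0.58 without KO replicates 2 and 3. The remaining lists gave median log2 differences of -0.17 for 8 macrophage markers, -3.24 for 5 adipocyte markers tested, -0.45 for 7 osteoblast markers, -0.94 for 6 osteoclast markers, -0.46 for 6 endothelial markers and -0.061 for 6 proliferation genes. Without KO replicate 1 the macrophage median was -0.47 and the adipocyte median -6.21, and without KO replicates 2 and 3 they were -0.013 and -2.30. The -6.21 was that of Cidec, near the floor in KO replicates 2 and 3 at 0.057 and 0.029 FPKM. Its wildtype libraries varied widely, at 7.50, 0.42 and 2.44 FPKM. Without KO replicate 1 the 5 adipocyte markers ranged from -6.99 (Plin1) to -2.17 (Adipoq).

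**Figure D5:**
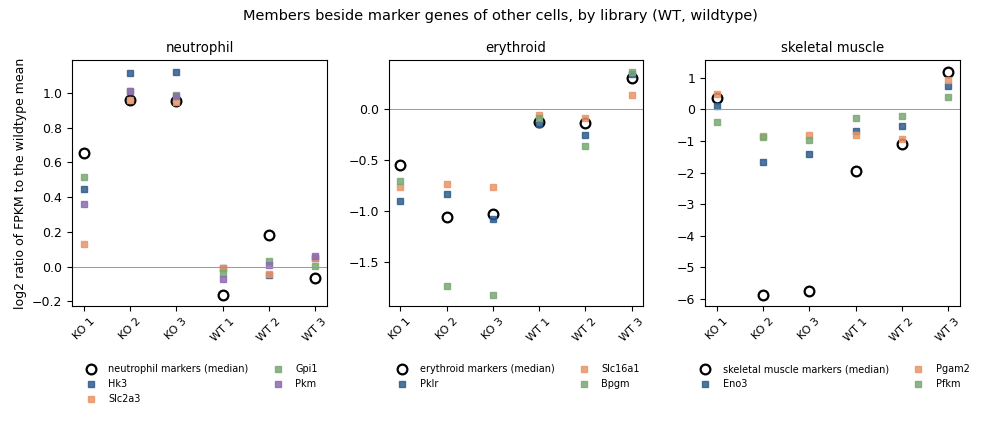
Log2 ratio of FPKM to the wildtype mean (y axis; 0.1 FPKM added) in each library (x axis) for members (squares) and for the median of the marker list (open circles) of neutrophils, erythroid cells and skeletal muscle. Hk3, Gpi1, Slc2a3 and Pkm are highest in KO replicates 2 and 3, Pklr and Slc16a1 are alike in all KO libraries, and Eno3 and Pgam2 are highest in KO replicate 1 and wildtype replicate 3.

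Neighbouring pathways were examined to see whether the pattern went further. The pentose phosphate pathway branches off at glucose 6-phosphate and supplies NADPH. Of its 8 genes, 7 were higher in KO, 5 of them at an unadjusted p-value under 0.05, where 7.63% of all genes were. The median log2 difference of the pathway was 0.42. G6pdx, its entry enzyme, stood at 72.6, 136 and 138 FPKM in KO and 50.2, 53.3 and 53.8 FPKM in wildtype. KO replicates 2 and 3 were well above KO replicate 1, which in turn was above the wildtype libraries. The log2 difference was 1.0 (SE 0.23, adjusted p = 0.171, and 0.0410 in the 6 libraries), larger than that of any member but Gapdh. Pgd, the next dehydrogenase, had a log2 difference of 0.72 (SE 0.19, adjusted p = 0.193, and 0.0453 in the 6 libraries). Tkt, H6pd and Rpe differed by 0.62, 0.50 and 0.34. None of the 5 was called in the 5 samples.

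The pyruvate carrier, the pyruvate dehydrogenase complex and its phosphatases had 0 of 10 genes at an unadjusted p-value under 0.05, where 7.63% of all genes were higher and 6.07% lower, and a median of 0.06. That median was -0.057 without KO replicates 2 and 3. Among 18 hypoxia-inducible factors and hypoxia-induced genes outside glycolysis, 2 were higher at that level, Ero1l, an oxidase of the endoplasmic reticulum (0.72, SE 0.17, adjusted p = 0.173, and 0.0399 in the 6 libraries), and Egln3, a prolyl hydroxylase (0.43, SE 0.17). The median of this list was 0.09, and it changed sign with the KO library used, from -0.064 without KO replicate 1 to 0.26 without KO replicates 2 and 3. Of 30 further genes of glycolysis, gluconeogenesis and sugar transport, 18 were tested, with a median of -0.072 that likewise changed sign, from -0.27 without KO replicate 1 to 0.13 without KO replicates 2 and 3. Eno1b, a near-identical copy of Eno1 (0.63), and Pgm1, which feeds glycogen-derived sugar into the pathway (0.36), were higher at that level. Bpgm, which makes the bisphosphoglycerate that loosens oxygen from haemoglobin in red cells, was lower at that level (-1.10). Bpgm stood at 81.4, 39.9 and 37.5 FPKM in KO and 124, 103 and 170.4 FPKM in wildtype. Its libraries fell in nearly the same order as the erythroid sums, with KO replicate 1 below the wildtype libraries and above KO replicates 2 and 3. The part of erythroid RNA in the lower level of Bpgm was not tested.

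Several glycolytic genes are known targets of hypoxia-inducible factors, which bind a short core motif, and the promoters of the members were searched for it. The motif was ACGTG or GCGTG on either strand (CACGT or CACGC on the strand shown), so that the palindrome CACGTG counts on both. The window was the 250 bases before each RefSeq start (GRCm38.p6). A window was found for 36 of the 37 members, and 30 of these (83.3%) held the motif in at least 1 window, against 41.5% of all genes with a window and 59.5% of the genes tested. Members differ from other genes in their number of windows, and per window the shares were 71.4% of 56 against 38.6% of all windows. The latter include windows of genes under the filter, and a share per window over the genes tested was not computed. Among the members that were higher at an unadjusted p-value under 0.05, 16 of 17 held the motif, and among the others 14 of 19. The windows of Gpi1, Pklr, Fbp1, Tpi1, Pgam2 and Eno2 did not hold it. The windows of 60 bases shown, with the motif in capitals, are those of Pgk1 and Slc16a3, for their paired copies, of Hk2, Hk3 and Adpgk, which phosphorylate glucose and lay higher in KO, and of Slc16a1, which was lower in KO and holds the motif too.
Pgk1 (chrX:106186932-106186991, plus strand): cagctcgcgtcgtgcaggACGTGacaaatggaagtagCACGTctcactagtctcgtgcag
Slc16a3 (chr11:120949007-120949066, plus strand): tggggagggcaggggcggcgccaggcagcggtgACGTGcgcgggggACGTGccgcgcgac
Adpgk (chr9:59291512-59291571, plus strand): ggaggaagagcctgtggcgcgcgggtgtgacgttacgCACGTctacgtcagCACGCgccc
Hk2 (chr6:82774475-82774534, minus strand): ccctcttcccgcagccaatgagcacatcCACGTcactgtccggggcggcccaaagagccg
Hk3 (chr13:55021510-55021569, minus strand): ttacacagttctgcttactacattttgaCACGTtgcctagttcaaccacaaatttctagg
Slc16a1 (chr3:104638495-104638554, plus strand): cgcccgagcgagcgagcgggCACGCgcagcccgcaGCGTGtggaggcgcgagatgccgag
The sequences are written 5′ to 3′ on the strand of the gene. The motif was thus present in promoters of members that were higher, lower or overlapping in KO. A match is a description of these letters, not of a bound site. The part of hypoxia-inducible factors in the differences between genotypes was not tested.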

How the data were processed

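RNA-seq of articular cartilage was analysed from a table with 1 row per gene. The identity of the deleted gene and the result of 1 gene of a related list are not reported here. Polyadenylated RNA had been converted into strand-specific libraries with molecular identifiers and read as pairs of 150 bases. The submitters' processing notes name cutadapt 1.9, HISAT2 2.0.4, UMI-tools, StringTie 1.3.4d, DESeq2 and edgeR. The genome build was not given in the sources used here, and gene positions follow GRCm38. The authors deposited FPKM values, scaled within each library, and estimated counts. The counts were whole numbers, but 6596 values stood at 4 against 4170 at 3 and 2332 at 5, so a count was not taken for 1 fragment. Column names matched the sample titles, and the number of per-sample columns not used was 0. Library totals were 52268311 to 63331135 per library.

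Groups came from the sample titles. Genes averaging 0.5 FPKM or more were tested with edgeR 4.0.16 (R 4.3.3; quasi-likelihood test, TMM scaling, two-sided) on 2 KO and 3 wildtype samples, after KO replicates 2 and 3 were merged as a rounded mean. Benjamini-Hochberg adjustment ran over all genes tested. The SE was taken as the log2 difference divided by the root of F. Isoform shares were tested with exact two-sided permutation tests (SciPy 1.17.1). Copies of members were found with BLAST 2.17.0 (97% identity over 150 bases) on coding sequences of GENCODE M21, and promoter windows were RefSeq's. Alternatives were DESeq2 1.42.0, limma 3.58.1 on log2(FPKM + 1) and log2(FPKM + 0.1), other scaling and filters, a replicate block and each library left out. The edgeR and DESeq2 fits of the 5 samples and of the 6 libraries were tested on simulated data. The simulation drew the libraries as independent and used changes larger than those of the members. It therefore does not cover the likeness of KO replicates 2 and 3 or differences as small as those here. The members and gene lists were chosen with earlier results of these data known. All 37 members are named, and genes of related lists are named at an unadjusted p-value under 0.05 in the 5 samples or an adjusted p-value under 0.05 in the 6 libraries.

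Whether same-numbered KO and wildtype replicates deviate together was checked. Their correlations across genes were -0.19, -0.13 and -0.046, so the numbers were not taken to pair the samples.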

Additional observations from a re-analysis of the deposited data

How the results depend on the processing

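The number of members with an adjusted p-value under 0.05, 0 in the 5 samples, was 12 with the 6 libraries as labelled, 16 by DESeq2, 21 by DESeq2 on the 6 libraries, 11 on the 6 libraries with the counts of near-identical copies added to the members, and 0 to 6 with libraries left out. It was 0 by limma, with median-of-ratios scaling, without a filter and with a minimum of 5 FPKM. The number higher at an unadjusted p-value under 0.05, 18 in the 5 samples, was 15 by limma and 16 with a minimum of 5 FPKM. Without wildtype replicates 1, 2 and 3 in turn, the number higher was 13, 14 and 13. The number lower at an unadjusted p-value under 0.05 was 2 in the 5 samples and 2 to 4 with libraries left out, with 4 without KO replicate 1. The median log2 difference was 0.44 with a minimum of 5 FPKM, which leaves out weakly expressed members, 0.26 and 0.27 by limma with pseudocounts of 1 and 0.1, and 0.28 to 0.36 with libraries left out. With the replicate block on the 6 libraries, 0 members were called, 18 were higher and 4 lower at an unadjusted p-value under 0.05, and the median was 0.31; the labels do not say what a shared number means.

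The 20 members at an unadjusted p-value under 0.05 were chosen from the same libraries that the alternatives refit. A kept sign was therefore likely beforehand and is a description of them. Over the alternatives that could be run for each row, 30 of the 38 rows kept their sign, among them all 20. The minimum of 5 FPKM leaves 29 rows and leaves out Pfkp of the 20. Of the 8 others, Fbp1 turned to -0.19 in the 6 libraries (-0.18 by DESeq2, -0.34 with the replicate block, -0.19 with copies added), -0.051 and -0.11 by limma, and Pgam2 to -0.22 in the 6 libraries (-0.21 by DESeq2, -0.11 with the block, -0.22 with copies added) and -0.013 with a minimum of 5 FPKM. The second Aldoa row turned to -0.0046 with the block. Without KO replicates 2 and 3, Eno2, Eno3 and Pdk4 turned to 0.36, 0.20 and 0.010. The cause was not tested. With single libraries left out, log2 differences ranged from -0.19 to 0.026 for Hk1, -0.039 to 0.35 for Pfkfb1, -0.78 to 0.11 for Fbp1, -0.40 to 0.38 for the second Aldoa row, -0.87 to 0.91 for Pgam2, -0.78 to 0.051 for Eno2 and -1.58 to 0.18 for Eno3. Differences in share ranged from -1.92 to 1.73 points for Slc2a1 (-0.10 in the 6 libraries), -3.45 to 2.28 for Slc2a3, -0.36 to 1.72 for Slc2a6, -1.25 to 4.92 for Pgam1, -4.92 to 1.25 for Pgam2, -0.00027 to 1.56 for Ldha and -1.56 to 0.00027 for Ldhb. The second Aldoa row rests on 24 to 51 counts per library, so small differences were not detectable at this depth.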
